A study of Homo sapiens with 12 samples.

Results

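The mitochondrially encoded genes are the 37 genes on chromosome M: 13 messenger RNAs (mRNAs), 2 ribosomal RNAs (rRNAs) and 22 transfer RNAs (tRNAs). They were taken by position, as every annotated gene of chromosome M, with no measured value used. Of the 37, 36 had at least 1 count in a table, against 35638 genes with a count over the series as a whole. MT-TK, the lysine tRNA, had none. A library held 35 or 36 of them and a single well held between 26 and 36. The series measured polyadenylated RNA from human cell lines by 3 single-cell assays. LAST-seq attaches a T7 promoter to the poly(A) end of the RNA and transcribes the RNA itself, CEL-seq2 transcribes double-stranded cDNA, and both count unique molecular identifiers (UMIs). SMART-seq V4 amplifies full-length cDNA and gives reads without UMIs. HEK293T is a human embryonic kidney line that carries the SV40 large T antigen, and its live single cells were sorted into wells for each assay. LAST-seq of single cells had 2 libraries of 10 wells, replicate 1 with the A60 spike-in mix and replicate 2 with the ERCC mix. CEL-seq2 of single cells had 2 libraries of 10 wells, replicate 1 with both mixes and replicate 2 with ERCC. Other wells held HEK293T lysate (LAST-seq and CEL-seq2, 10 each, and SMART-seq, 10 and 16) or 15 pg of extracted HEK293T total RNA (LAST-seq, 10). The labels call the lysate cell lysate or single cell lysate. How many cells the lysate of a well came from was not given in the sources used here. SMART-seq of single cells had 6 wells. The eHAP1 cells, a haploid human line, were sorted in G1 as wild type (WT) and as SCC4 KO, a knockout of the cohesin loader subunit SCC4 (gene symbol MAU2). Each genotype was 1 sample in 2 batches, 73 and 75 WT cells and 77 and 76 SCC4 KO cells, and the knockout was 1 clone.

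Human mitochondrial DNA is transcribed from both strands into long precursors, and most mRNAs and rRNAs are released by cutting out the tRNAs that lie between them. The released mRNAs receive short poly(A) tails inside the organelle, and for several of them these added bases complete the stop codon. The proteins they encode are subunits of respiratory complexes I, III and IV and of ATP synthase (complex V), and the rRNAs form the ribosome that makes them. MT-ND6, alone among the mRNAs on the light strand, is known to carry little or no poly(A).

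All 3 assays prime on poly(A), so the bases that precede the poly(A) of a transcript are the ones next to the primer. The annotated end of a gene need not be that place. MT-ATP8 ends inside the transcript it shares with MT-ATP6, and MT-ND6 is known to carry little or no poly(A). The last 30 bases are shown for the 9 mRNAs and rRNAs whose level differed between LAST-seq and CEL-seq2, read from the GRCh38 reference 5′ to 3′ on the strand of the gene. Capitals mark the stop codon bases that the genome encodes. The last 2 sequences are the last 30 bases of the complement of 2 tRNAs, to which the transcripts of MT-CO1 and of MT-ND5 and its downstream region are known to extend, and they are read on the plus strand.
MT-RNR1, chrM:1572-1601, plus: aagtgtactggaaagtgcacttggacgaac
MT-RNR2, chrM:3200-3229, plus: tatacccacacccacccaagaacagggttt
MT-ATP8, chrM:8543-8572, plus: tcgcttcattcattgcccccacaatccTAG
MT-ATP6, chrM:9178-9207, plus: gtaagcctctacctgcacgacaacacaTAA
MT-CO3, chrM:9961-9990, plus: tgtatgtctccatctattgatgagggtctT
MT-ND3, chrM:10375-10404, plus: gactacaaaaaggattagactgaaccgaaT
MT-ND4, chrM:12108-12137, plus: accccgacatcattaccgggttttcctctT
MT-ND6, chrM:14149-14178, minus: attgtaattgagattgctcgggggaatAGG
MT-CYB, chrM:15858-15887, plus: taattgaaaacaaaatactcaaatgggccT
complement of MT-TS1, chrM:7485-7514, plus: agccaaccccatggcctccatgactttttc
complement of MT-TE, chrM:14713-14742, plus: aaaccatcgttgtatttcaactacaagaac
Of the 13 mRNAs, 7 had a complete stop codon in the genome and 6 ended with 1 or 2 of its bases, among them MT-ND3, MT-CO3, MT-ND4 and MT-CYB above. MT-ATP8 and MT-ATP6 share 46 bases on 1 transcript, and MT-ND4L and MT-ND4 share 7. Counts within such a pair, and counts on the strand opposite to a gene, cannot be assigned with certainty, since the strand setting of the counting was not given in the sources used here.

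Totals per well, with spike-ins left out, ran from 62816 to 195438 UMIs in the HEK293T libraries made with UMIs and from 747676 to 818813 reads in SMART-seq. In eHAP1 they ran from 18022 to 926415 UMIs. Of the HEK293T markers, PAX8 and NEFM had 0 UMIs in both LAST-seq single-cell libraries. PAX2 and LHX1 had 0 in replicate 1 and 2 and 12 UMIs in replicate 2, and SOX11 had 5 and 3 UMIs in the replicates. NEFL was at 29.5 and 9.94 CPM (UMIs scaled to a common total of gene UMIs). In the CEL-seq2 cell libraries SOX11 was at 37.3 and 25.4 CPM, NEFL at 75.9 and 15.1, and NEFM had 16 and 3 UMIs. In eHAP1 the blood-lineage markers PTPRC, SPI1 and GATA1 were at 0 in all 4 tables. KIT had 12 and 26 UMIs in the WT batches and 25 and 50 in the SCC4 KO batches, CD34 had 0 in both WT batches and 7 and 11 in SCC4 KO, and PAX2 was between 14.9 and 27.0 CPM. ABL1 and BCR, from the same list as the blood-lineage markers, were between 2.33 and 7.71 and between 5.61 and 8.39 CPM. MAU2 had 44.2 and 41.2 CPM in the WT batches and 9.17 and 14.5 in the SCC4 KO batches, with a UMI in 71 of 73, 71 of 75, 33 of 77 and 70 of 76 cells. Each of the 6 SMART-seq single-cell wells matched a well of lysate replicate 2 within sampling noise, and 3 pairs of wells within lysate replicate 1 matched in the same way. All 10 well barcodes recurred in the 4 LAST-seq HEK293T libraries, 9 or 10 of them in each eHAP1 table, and none was shared between the LAST-seq and CEL-seq2 HEK293T libraries. Each CEL-seq2 library shared 3 with each eHAP1 table. In eHAP1 the 2 batches of a genotype lay closer together than counting error allows for well-counted genes: over 221 WT genes of at least 10000 UMIs the spread between batches was 0.00599 on the log2 scale, against 0.0222 from counting alone, and over 207 SCC4 KO genes it was 0.00403 against 0.0229. Over genes from 100 to under 1000 UMIs the spread was above counting error, 0.285 against 0.169 in WT and 0.266 against 0.173 in SCC4 KO. The batches were therefore treated as values side by side and not as independent repeats.

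Mitochondrial transcripts took a larger part of the UMIs in every LAST-seq HEK293T cell than in any CEL-seq2 cell. The share of all gene UMIs was 16.8% ± 1.16 (SD over 10 wells) in LAST-seq replicate 1, with a lowest, median and highest well of 15.9%, 16.3% and 19.1%, and 14.4% ± 0.948 in replicate 2, with 13.5%, 14.3% and 16.0%. In CEL-seq2 it was 7.49% ± 0.956 in replicate 1, with 6.13%, 7.48% and 8.59%, and 9.004% ± 1.89 in replicate 2, with 4.96%, 9.03% and 11.9%. In UMIs the ranges of the assays did not overlap. In reads they did. The share of reads ran from 14.4% to 20.5% in LAST-seq replicate 1 and from 12.5% to 15.9% in replicate 2. In CEL-seq2 replicate 1, the CEL-seq2 library with reads, it ran from 9.83% to 16.0%. Over libraries the share of UMIs was 15.6% ± 1.65 in LAST-seq and 8.25% ± 1.07 in CEL-seq2 (SD, n = 2 libraries each). The difference was 7.35 percentage points and the ratio was 1.89. With UMIs corrected for collisions the difference was 6.24 percentage points. The exact two-sided permutation test over libraries gave p = 0.333, which is the smallest p that 2 libraries against 2 can give. The libraries may share cultures, so p-values here measure the spread between these libraries only, which may be technical.

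Lysate wells had higher shares than single cells in both UMI assays, and so had 15-pg RNA in LAST-seq. LAST-seq lysate had 19.2% ± 0.532 (18.2%, 19.2% and 19.997%) and 15-pg RNA had 18.7% ± 0.444 (18.3%, 18.6% and 19.8%), which lay 3.58 and 3.09 percentage points above the mean of the cell libraries. CEL-seq2 lysate had 14.5% ± 0.626 (13.4%, 14.6% and 15.3%), 6.23 percentage points and 1.76 times above its cells. In CEL-seq2 no lysate well overlapped with the cells, whereas the highest cell of LAST-seq replicate 1, at 19.1%, lay within the range of the lysate and RNA wells. Lysate and RNA had 1 library per assay, so these differences have no test. Whether a lysate well held the RNA of 1 cell or of many was not given, and the part of the input in these differences was not tested.

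The share of reads in SMART-seq was lower than the share of UMIs in either other assay and is a different quantity. Single cells had 3.71% ± 0.243 (6 wells, 3.27%, 3.81% and 3.96%), lysate replicate 1 had 2.56% ± 0.315 (2.03%, 2.50% and 2.95%) and lysate replicate 2 had 3.06% ± 0.601 (2.35%, 2.72% and 3.97%). Read tables also existed for LAST-seq, where the share of reads was 17.0% and 14.1%, and for CEL-seq2 replicate 1, where it was 13.1% against 7.49% of UMIs. In that CEL-seq2 library a mitochondrial UMI had 4.71 reads and a nuclear UMI 2.55, and among the 15 mRNAs and rRNAs the reads per UMI ran from 1.68 (MT-CO2) to 6.82 (MT-ND2). In LAST-seq replicate 1 the reads per UMI were 4.94 for mitochondrial and 4.80 for nuclear genes.

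In eHAP1 cells the share was near 21% in both genotypes. WT cells had 20.8% ± 0.476 in batch 1 (73 cells, 19.6%, 20.8% and 22.3%) and 21.3% ± 0.597 in batch 2 (75 cells, 18.5%, 21.3% and 23.2%). SCC4 KO cells had 21.0% ± 0.533 in batch 1 (77 cells, 19.8%, 21.0% and 22.5%) and 21.2% ± 0.863 in batch 2 (76 cells, 19.9%, 21.1% and 26.5%). The genotypes overlapped nearly throughout, and the mean over batches differed by 0.0347 percentage points, a value whose sign changed with the processing.

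**Figure D1:**
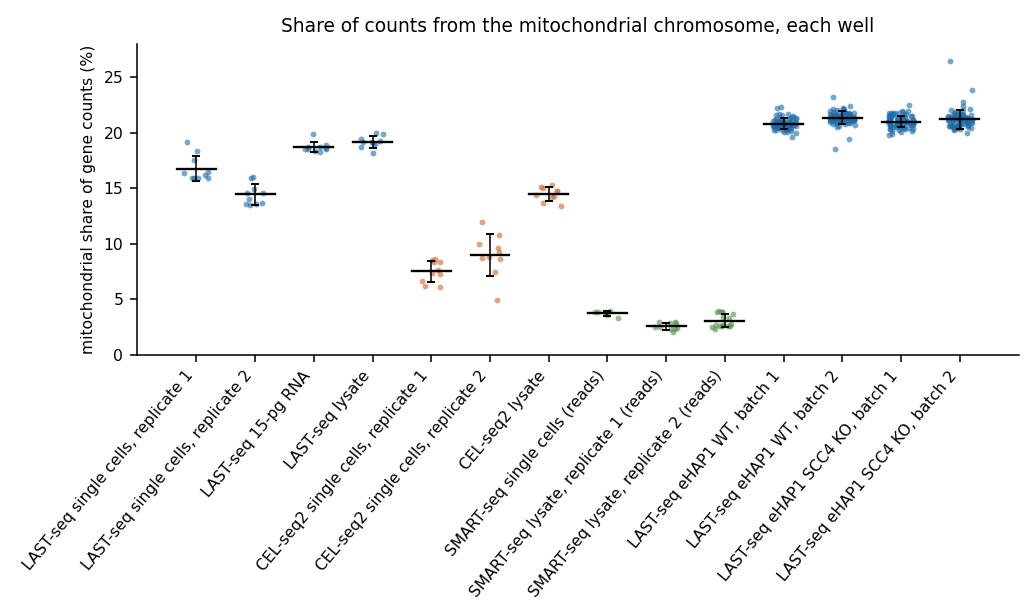
Share of gene counts from the 37 mitochondrial genes (percent, y axis) in every well of every library (x axis); points are wells, bars are mean ± SD over wells. LAST-seq HEK293T cells lay between 13.5% and 19.1%, CEL-seq2 cells between 4.96% and 11.9%, SMART-seq wells below 4% and most eHAP1 cells near 21%.

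What made up the mitochondrial counts differed between the assays. The 13 mRNAs were 90.8% and 90.1% of mitochondrial UMIs in the LAST-seq cell libraries and 72.9% and 69.4% in CEL-seq2. The 2 rRNAs were 3.91% and 4.05% in LAST-seq cells, 20.6% and 22.3% in CEL-seq2 cells, and 10.9% of SMART-seq reads. tRNAs were 5.26% and 5.82% in LAST-seq, 6.56% and 8.29% in CEL-seq2 and 0.584% of SMART-seq reads. The gene with the most counts was MT-ND4 in LAST-seq cells (16.0% and 15.7%), MT-RNR2 in CEL-seq2 cells (17.2% and 17.6%), MT-CO1 in SMART-seq cells (23.7%) and MT-CO3 in WT eHAP1 cells (23.0% and 22.8%).

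Levels of different genes were also compared per kilobase of gene. This was done as a share of the reads per kilobase of the 15 mRNAs and rRNAs, in the libraries with read tables. MT-ND3, a short mRNA for a complex I subunit, held the largest share in LAST-seq, 33.6% and 31.4%, against 7.82% in CEL-seq2 and 0.785% in SMART-seq, where it was the lowest of the 15. MT-ATP6, which encodes a membrane subunit of ATP synthase, led CEL-seq2 at 22.1%, with 14.2% and 13.03% in LAST-seq and 8.60% in SMART-seq. MT-CO2, which encodes the complex IV subunit that accepts electrons from cytochrome c, led SMART-seq at 20.1%, with 3.33% and 3.02% in LAST-seq and 0.976% in CEL-seq2. The leading gene thus differed in each assay on the same cell line. MT-CO1, the catalytic core of complex IV, followed the same order as MT-CO2, with 15.0% in SMART-seq, 0.834% and 0.939% in LAST-seq and 0.726% in CEL-seq2. MT-CO3 held 12.7%, 15.1%, 6.02% and 13.7% in LAST-seq replicates 1 and 2, CEL-seq2 and SMART-seq, and MT-CYB held 6.69%, 6.88%, 5.34% and 9.79%. These 2 varied less between assays than MT-ND3 or MT-CO2 did. Across the other complex I mRNAs, MT-ND6 held 12.5% in both LAST-seq libraries, 7.68% in CEL-seq2 and 1.80% in SMART-seq, and MT-ND2 held 0.759%, 1.02%, 10.6% and 3.10% in the same order as above. MT-ND4 held 6.63%, 6.49%, 12.3% and 6.37%, MT-ND1 3.24%, 3.89%, 3.88% and 1.80%, MT-ND4L 0.781%, 1.11%, 0.715% and 4.37%, and MT-ND5 0.728%, 0.795%, 1.65% and 2.68%. The rRNAs and MT-ATP8 were low in LAST-seq: MT-RNR2 held 2.45%, 2.29%, 12.6% and 6.28%, MT-RNR1 0.601%, 0.590%, 1.37% and 0.975%, and MT-ATP8 0.944%, 0.948%, 6.24% and 4.71%. SMART-seq covers whole transcripts and the UMI assays count their 3′ ends, so a value per kilobase does not mean the same in them. Where 3′ ends are counted, division by length raises short genes. Of all mitochondrial reads, not divided by length, MT-ND3 held 16.4% and 14.9% in LAST-seq replicates 1 and 2. MT-CO3 led replicate 2 at 16.3%.

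**Figure D2:**
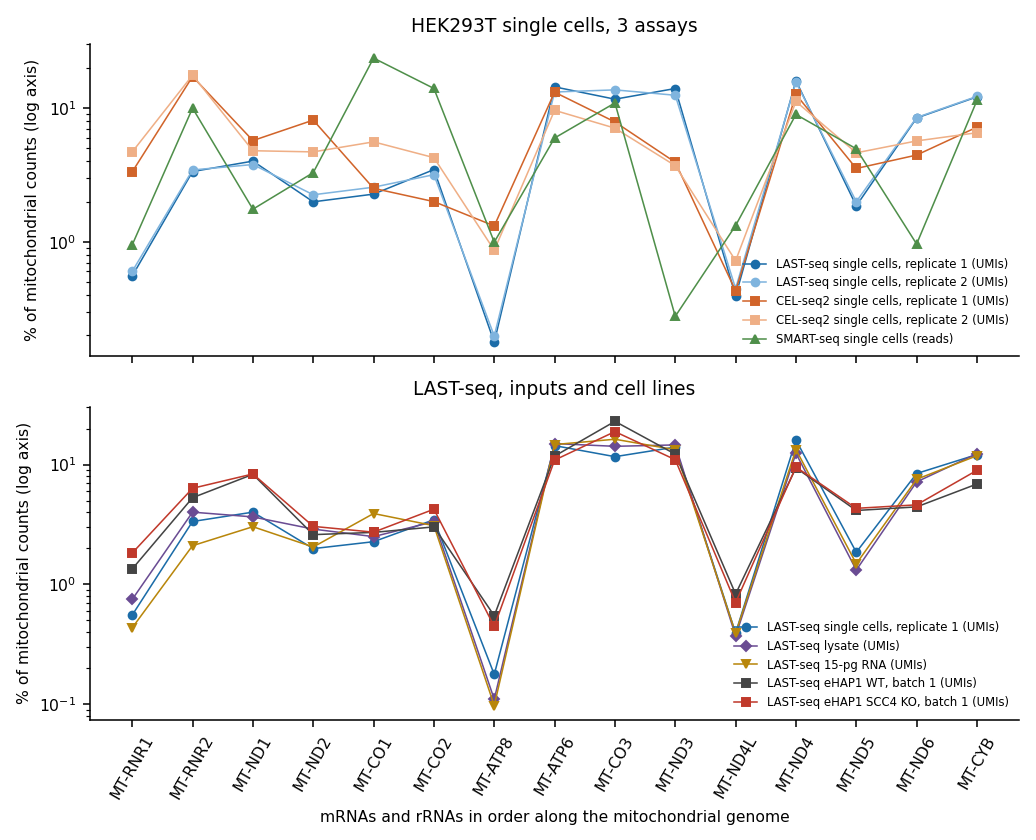
Percent of all mitochondrial counts (log axis) taken by each of the 15 mRNAs and rRNAs, in HEK293T and in eHAP1 libraries (the 2 panels), not corrected for gene length. The rRNAs stand highest in CEL-seq2, MT-CO1 in SMART-seq reads and MT-CO3 in eHAP1 cells.

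The comparison of LAST-seq with CEL-seq2 asks how the capture of each transcript depends on the assay, in single cells of the same line. Of the 35 mitochondrial genes tested, 11 were higher in LAST-seq, against 11.3% of all 11271 genes tested, and 4 were lower, against 14.8%. The 6 mRNAs that rose by UMIs belong to complexes I, III, IV and V: MT-ND3, MT-ND4, MT-ND6, MT-CYB, MT-CO3 and MT-ATP6. Both rRNAs and MT-ATP8 fell. UMIs were summed per library and tested by edgeR's quasi-likelihood test with Benjamini-Hochberg adjustment over all genes tested, and this test gave every fold change, SE and adjusted p of the comparison (n = 2 libraries each). Levels are in CPM, as the lowest, median and highest of 10 wells. The median log2 fold change was 0.76 over the 35 genes and -0.05 over all genes. The members' median was 0.27 without CEL-seq2 replicate 1 and 1.41 without CEL-seq2 replicate 2. Scaling to nuclear UMIs moved the all-gene median to -0.26 and left 11 and 4 genes called.

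The rRNAs were lower in LAST-seq than in CEL-seq2. MT-RNR1, the rRNA of the small ribosomal subunit, was at 751, 945 and 1088 in LAST-seq replicate 1 and 661, 859 and 1021 in replicate 2, and at 1249, 2555 and 4638 in replicate 1 and 1138, 3561 and 9127 in replicate 2 of CEL-seq2. MT-RNR2, the rRNA of the large subunit, was at 4916, 5586 and 6371 in replicate 1 and 4344, 4969 and 5575 in replicate 2 of LAST-seq, and at 8814, 14043 and 16500 in replicate 1 and 10751, 16700 and 23027 in replicate 2 of CEL-seq2. For both rRNAs every LAST-seq cell was below every CEL-seq2 cell. The log2 fold change was -1.66 ± 0.39 for MT-RNR1 (adjusted p = 0.0137) and -1.17 ± 0.37 for MT-RNR2 (adjusted p = 0.0444). With UMIs corrected for collisions MT-RNR2 was at -1.87 (adjusted p = 0.0121). MT-RNR1 and MT-RNR2 were the only members lower without overlap of cells, 2 of 35, against 1.56% of 13305 genes with at least 1 UMI per well on average. Reads shared with nuclear copies of the rRNAs were not analysed here.

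Complex I, which passes electrons from NADH to ubiquinone, has 7 mitochondrial subunits, and 3 of their mRNAs rose. Counts of MT-ND6, named among them, cannot be assigned to a strand with certainty. MT-ND3 was at 21678, 23098 and 27674 in replicate 1 and 16746, 17352 and 20742 in replicate 2 of LAST-seq, and at 2156, 2817 and 3954 in replicate 1 and 981, 3374 and 4410.1 in replicate 2 of CEL-seq2. The ranges were far apart, and at a log2 fold change of 3.0 ± 0.41 (adjusted p = 0.0016) it was the largest among the mRNAs. MT-ND6 was at 12647, 13840 and 15921 in replicate 1 and 10826, 11942 and 14096 in replicate 2 of LAST-seq, and at 1779, 3519.7 and 4361 in replicate 1 and 2458, 5206 and 8612 in replicate 2 of CEL-seq2, with no overlap and a log2 fold change of 1.90 ± 0.41 (adjusted p = 0.0097). MT-ND4, a proton-pumping subunit, was at 23882, 24818 and 34611 in replicate 1 and 19861, 21659 and 28382 in replicate 2 of LAST-seq, and at 7410.1, 9472 and 12058 in replicate 1 and 5723, 10484 and 13289 in replicate 2 of CEL-seq2. It did not overlap either, and its log2 fold change was 1.62 ± 0.39 (adjusted p = 0.0145). With the counts of its nuclear copies added, that of MT-ND4 was 1.18 (adjusted p = 0.0529), no longer past the threshold of 0.05. By reads MT-ND4 had 15040 and 11820 per cell in LAST-seq and 9923 in CEL-seq2 replicate 1. The median read totals per cell were 699964, 690132 and 409901, so its share of reads was not higher in LAST-seq. In that CEL-seq2 library it had 6.75 reads per UMI, against 2.55 for nuclear genes. The other 4 complex I mRNAs did not pass the test. MT-ND1 was at 6651 and 5402 with LAST-seq and 4271 and 4431 with CEL-seq2 (log2 fold change 0.79, adjusted p = 0.12), and with its nuclear copies added the value was 1.151 (adjusted p = 0.041). MT-ND2 was at 3299, 3209, 6075 and 4342 in the same order, MT-ND4L at 651, 638, 322 and 667, and MT-ND5 at 3077, 2849, 2642 and 4274, with log2 fold changes of -0.35, 0.66 and 0.07.

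MT-CYB, which encodes cytochrome b, the single mitochondrial subunit of complex III, rose as well. It was at 19043, 19527 and 25171 in replicate 1 and 15904, 16910 and 21586 in replicate 2 of LAST-seq, and at 3911, 5342 and 7104 in replicate 1 and 2408, 5933 and 7852 in replicate 2 of CEL-seq2, without overlap. Its log2 fold change was 2.03 ± 0.38 (adjusted p = 0.0056).

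Of the complex IV mRNAs, only MT-CO3 passed the test. It was at 18449, 19431 and 20561 in replicate 1 and 17774, 19689 and 21310 in replicate 2 of LAST-seq, and at 4538, 5941 and 7440 in replicate 1 and 1514, 6858 and 8491 in replicate 2 of CEL-seq2, without overlap, and its log2 fold change was 1.95 ± 0.38 (adjusted p = 0.0061). MT-CO2 was at 4782, 5505 and 6749 in replicate 1 and 3949, 4565 and 5077 in replicate 2 of LAST-seq, and at 1103, 1424 and 2140.1 in replicate 1 and 1316, 4065 and 6008 in replicate 2 of CEL-seq2 (log2 fold change 1.19, adjusted p = 0.105). MT-CO1 was at 3444, 3818 and 4154 in replicate 1 and 3331, 3624 and 4408 in replicate 2 of LAST-seq, and at 1331, 1842 and 2583 in replicate 1 and 1378, 5044 and 7129 in replicate 2 of CEL-seq2 (log2 fold change 0.34, adjusted p = 0.65). In both genes the CEL-seq2 libraries stood further apart than the LAST-seq libraries did: replicate 2 was higher than replicate 1. For MT-CO1 the sign of the fold change turned, to -0.53, when its nuclear copies were added.

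The ATP synthase mRNAs moved in opposite directions, and they lie on 1 transcript. MT-ATP6 was at 21823, 23861 and 27458 in replicate 1 and 17642, 18658 and 21676 in replicate 2 of LAST-seq, and at 8264, 9658 and 12378 in replicate 1 and 2855, 9089.7 and 11342 in replicate 2 of CEL-seq2, with a log2 fold change of 1.52 ± 0.38 (adjusted p = 0.0174), and of 2.12 with its nuclear copies added (adjusted p = 0.0063). MT-ATP8, which encodes a small accessory subunit, was at 172, 306 and 407 in replicate 1 and 206, 287 and 352 in replicate 2 of LAST-seq, and at 670.3, 987 and 1527 in replicate 1 and 382, 649 and 1688 in replicate 2 of CEL-seq2, with a log2 fold change of -1.30 ± 0.28 (adjusted p = 0.0097). In UMIs the cells of the assays did not overlap for MT-ATP6 and did overlap for MT-ATP8. By reads MT-ATP6 had 15940 and 11720 per cell in LAST-seq and 8806 in CEL-seq2 replicate 1. At the read totals given for MT-ND4, its CEL-seq2 share of reads lay between those of the 2 LAST-seq libraries. As a ratio of summed UMIs, MT-ATP8 over MT-ATP6 was 0.0123 and 0.0150 in LAST-seq cells, 0.100 and 0.0899 in CEL-seq2 cells and 0.167 in SMART-seq reads.

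Among the 20 tRNAs tested, 5 rose and 1 fell. MT-TE, the glutamate tRNA, was the most counted of those that rose, at 3283, 3407 and 3936 in replicate 1 and 2934, 3302 and 3524 in replicate 2 of LAST-seq, and at 361, 794 and 1335 in replicate 1 and 124, 1619.8 and 2869 in replicate 2 of CEL-seq2 (log2 fold change 1.79, adjusted p = 0.0142). MT-TF, the phenylalanine tRNA at the start of the heavy-strand transcript, had 310 and 258 UMIs over the 10 cells of each LAST-seq library and 1 and 16 over those of each CEL-seq2 library (log2 fold change 5.36, adjusted p = 0.00144). At 1 UMI in 1 of the libraries that fold depends on the prior count of the fit. MT-TA, MT-TW and MT-TM, the tRNAs for alanine, tryptophan and methionine, were at 81.4 and 67.6 against 5.15 and 4.81, at 32.3 and 29.8 against 7.08 and 2.75, and at 429 and 442 against 149 and 239, with log2 fold changes of 4.20, 2.97 and 1.46. MT-TI, the isoleucine tRNA, fell, from 39.2 and 50.1 in CEL-seq2 to 11.2 and 10.6 in LAST-seq (log2 fold change -1.72, adjusted p = 0.0231). Of the tRNAs, MT-TA, MT-TE and MT-TF did not overlap between the assays' cells. With MT-ATP6, MT-CO3, MT-CYB, MT-ND3, MT-ND4 and MT-ND6 that made 9 of 35 members whose LAST-seq cells all exceeded the CEL-seq2 cells, against 1.29% of 13305 genes; genes with many counts have less counting error and separate more easily. The other 14 tRNAs tested did not pass. In LAST-seq replicates 1 and 2 and CEL-seq2 replicates 1 and 2, in this order, MT-TS1 was at 2844, 2766, 2972 and 4208 CPM, MT-TL1, a leucine tRNA, at 433, 521, 264 and 384, and MT-TD, for aspartate, at 209, 151, 113 and 156. MT-TY was at 189, 183, 21.9 and 133, and MT-TC at 109, 121, 30.9 and 92.7, so that CEL-seq2 replicate 1 was the low library of both. MT-TN was at 124, 88.1, 40.5 and 109.9, and MT-TT at 125, 140.4, 63.7 and 127. MT-TP was at 197, 144, 208 and 231 and MT-TS2 at 93.3, 68.9, 77.9 and 79.0. The libraries of the assays overlapped for MT-TD, MT-TN, MT-TT, MT-TS2, MT-TR, MT-TL2 and MT-TH. MT-TR was at 18.2, 9.94, 10.3 and 74.9, and MT-TL2 at 14.0, 17.2, 12.2 and 37.8, with CEL-seq2 replicate 2 the high library of both. MT-TH was at 36.5, 44.4, 41.8 and 46.0, MT-TQ at 30.2, 37.1, 47.6 and 49.5 and MT-TG at 5.61, 3.97, 9.01 and 14.4. MT-TV, the valine tRNA, had 3 UMIs in LAST-seq replicate 1 and 0 in replicate 2, and was not tested. Mature tRNAs are known to carry no poly(A), and mature tRNAs and uncut precursors cannot be told apart in these tables.

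Internal runs of A are another feature that oligo-dT primers can meet, and they were counted in each mRNA and rRNA. The 8 genes with a run of at least 6 A had a median LAST-seq over CEL-seq2 quotient of CPM of 0.741, from 0.26 to 2.47, and the 7 genes without such a run had 3.05, from 1.3 to 6.44. The sets overlapped: MT-ND4, with 2 such runs, was at 2.47, and MT-ND4L, with none, at 1.30. This is a description over 15 genes of 1 genome, and its part in the differences was not tested.

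Calls depended on the LAST-seq libraries. Without LAST-seq replicate 1 or without replicate 2, 4 members stayed called higher and 0 lower by edgeR's quasi-likelihood test (3 and 1 lower at an unadjusted p under 0.05), and without CEL-seq2 replicate 2, 22 were called higher. DESeq2 on all 4 libraries called 12 higher and 3 lower.

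**Figure D3:**
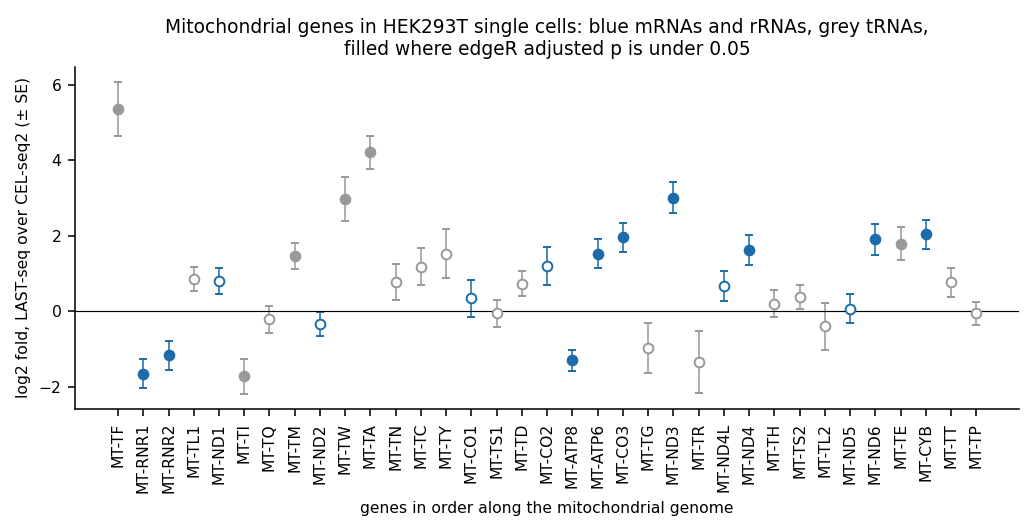
Log2 fold change of LAST-seq over CEL-seq2 single HEK293T cells (y axis) for the 35 mitochondrial genes tested (x axis), with SE bars. Filled points passed an edgeR adjusted p of 0.05. MT-ND3 stands highest of the mRNAs at 3.0 and MT-RNR1 lowest of the mRNAs and rRNAs at -1.66.

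The nuclear genome holds copies of mitochondrial DNA, and 404 such genes were listed from the annotation. They were counted together at 32.9% to 47.4% of the level of the mitochondrial genes themselves in the UMI libraries, for example 41.4% and 39.4% in LAST-seq cells, 41.5% in CEL-seq2 replicate 1, 37.7% in WT and 32.9% in SCC4 KO cells of batch 1, and at 16.5% to 17.6% in SMART-seq reads. Of all their UMIs, 48.2% fell on MTATP6P1 and 22.1% on MTND1P23, both in a stretch of chromosome 1 (chr1:629062-634922, GRCh38) that matches MT-ND1 to MT-CO3 at 97.6% to 99.2% of aligned bases. Another copy, on chromosome 5 (chr5:134926660-134928036), matches MT-ND4 at 95.8%. For MT-ATP6 46.7% of 50-base windows were shared with a listed copy, for MT-CO1 49.5%, for MT-ND2 43.6%, for MT-ND4 3.54% and for MT-ND3 and MT-ND4L 0%. Levels of a member and its copy are therefore uncertain where windows are shared.

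MTATP6P1 drew more UMIs than MT-ATP6 itself in LAST-seq cells, 5702 against 3403 per cell in replicate 1. As a share of copy plus gene, the median well was at 62.4% and 64.3% in the LAST-seq cell libraries, 43.7% and 46.1% in CEL-seq2 cells, 35.2% in SMART-seq cells and 61.3% in WT eHAP1 cells of batch 1. The order across assays was not the same for every gene. For MT-CO1 the share was 35.2% and 35.3% in LAST-seq cells, 73.8% and 56.0% in CEL-seq2 cells and 24.3% in SMART-seq cells, so that here CEL-seq2 placed the larger part on the copy. For MT-CO3 it was 3.89% and 3.44% in LAST-seq cells, 4.35% and 11.9% in CEL-seq2 cells and 19.3% in SMART-seq cells.

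The copy of MT-ND4 on chromosome 5 divided the LAST-seq HEK293T libraries. MTND4P12 took 13.4% to 19.6% of copy plus gene in the cells of replicate 1 (median 16.5%) and 17.0% to 19.4% in the lysate wells (median 18.3%), but 1.02% to 1.99% in the cells of replicate 2 (median 1.51%) and 0.837% to 1.52% in the RNA wells (median 1.23%). The wells of the first pair did not overlap with those of the second. The copy was at 5217 and 5328 CPM in replicate 1 and lysate and at 344 and 304 in replicate 2 and RNA. In CEL-seq2 the share was 35.5% and 31.6% in cells and 12.6% in lysate, and in eHAP1 it was 17.5% and 17.2% in WT and 19.9% and 19.8% in SCC4 KO. Replicate 1 and lysate were the LAST-seq HEK293T libraries labelled with the A60 mix, and the part of the spike-in mix or of the processing in this split was not tested.

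**Figure D4:**
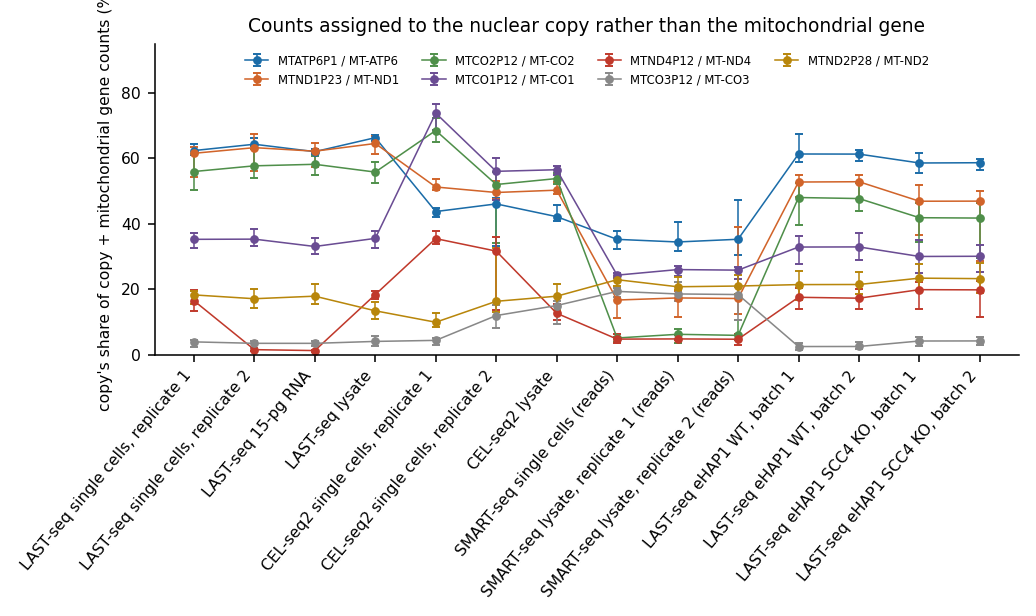
Percent of copy plus gene UMIs or reads (y axis) that fell on the nuclear copy of each mitochondrial gene, by library; points are medians over wells and bars run from the lowest to the highest well. MTND4P12 is at 16.5% and 18.3% in LAST-seq replicate 1 and lysate and below 2% in replicate 2 and 15-pg RNA.

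Ratios between transcripts of a well do not depend on its total. Gene lengths cancel when 1 ratio is compared between libraries of the same assay. They do not cancel between SMART-seq, which covers whole transcripts, and the UMI assays, which count 3′ ends. Some were added after the data were seen, namely those of MT-TS1 and MT-TE. MT-ND6 over MT-ND5, which lie next to each other on opposite strands, was 4.54 in LAST-seq replicate 1 (95% interval 4.395 to 4.69 from counting error, wells from 3.99 to 5.14) and 4.26 in replicate 2, 5.07 in RNA and 5.45 in lysate. It was 1.26 and 1.23 in CEL-seq2 cells, 1.95 in CEL-seq2 lysate, 0.194 in SMART-seq cells and 1.07 in all 4 eHAP1 tables. The same line thus gave ratios on either side of 1 by assay, and LAST-seq gave different ratios in the 2 lines. HEK293T and eHAP1 wells were also pooled in different numbers, and only eHAP1 was sorted in G1. Line and preparation therefore cannot be told apart. Per base of gene the values of LAST-seq replicate 1 and of SMART-seq cells were 15.7 and 0.670.

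MT-TE lies next to MT-ND6 on the minus strand, opposite to the region past MT-ND5, and MT-TS1 lies past MT-CO1 on the strand opposite to it. MT-TE over MT-ND5 was 1.14 and 1.16 in LAST-seq cells, 1.46 in RNA and 1.34 in lysate, 0.299 and 0.375 in CEL-seq2 cells, 0.00666 in SMART-seq cells, 0.144 in WT and 0.166 in SCC4 KO. MT-TS1 over MT-CO1 was 0.755 and 0.756 in LAST-seq cells, 0.870 in RNA, 0.881 in lysate, 1.58 and 0.815 in CEL-seq2 cells, 0.00775 in SMART-seq cells, 0.482 and 0.481 in WT and 0.352 and 0.351 in SCC4 KO. Both tRNA genes were thus counted at 0.144 to 1.58 times their mRNA neighbours in the UMI assays named and far below them in SMART-seq. Without the strand setting, counts of MT-TS1 and MT-TE cannot be told apart from those of transcripts that reach over their complement, shown above. The same holds for MT-ND6, which lies between MT-ND5 and MT-TE, and so for its fold changes and its ratio to MT-ND5.

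The other ratios also moved with assay and line. MT-RNR2 over MT-RNR1 was 6.04 and 5.74 in LAST-seq cells, 5.16 and 3.75 in CEL-seq2 cells, 10.5 in SMART-seq cells, 3.93 and 3.94 in WT and 3.47 in both SCC4 KO batches. MT-CO1 over MT-CO2 was 0.656 and 0.806 in LAST-seq cells, 1.26 in RNA, 1.26 and 1.31 in CEL-seq2 cells, 1.69 in SMART-seq cells, 0.900 in WT batch 1, and 0.643 and 0.637 in SCC4 KO. MT-CO1 over MT-CO3 was 0.195 and 0.187 in LAST-seq cells, 0.319 and 0.790 in CEL-seq2 cells, 2.17 in SMART-seq cells, 0.118 and 0.121 in WT and 0.145 in SCC4 KO batch 1. In CEL-seq2 this last ratio differed more between the replicates than between LAST-seq libraries. MT-ND1 over MT-ND2 was 2.02 and 1.68 in LAST-seq cells, 0.703 and 1.02 in CEL-seq2 cells, 0.533 in SMART-seq cells, 3.19 and 3.14 in WT and 2.74 and 2.84 in SCC4 KO. MT-ND4L over MT-ND4, on 1 transcript, was 0.0245 and 0.0285 in LAST-seq cells, 0.0340 and 0.0645 in CEL-seq2 cells, 0.148 in SMART-seq cells, 0.0885 in WT batch 1 and 0.0739 in SCC4 KO batch 1.

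Lysate and extracted RNA ask how far a value depends on the input. A member was counted as past the threshold where it differed by at least 2-fold in the same direction from both single-cell libraries. For these folds 0.5 UMI was added, and no test was made. In LAST-seq lysate 1 of 34 members was higher, against 4.6% of 10794 genes, and 0 were lower, against 17.1%. That member was MT-TF, at 442 CPM in lysate against 218 and 171 in the cell libraries (log2 1.02 and 1.37). The rRNAs leaned upward without passing, MT-RNR1 at 1436 (log2 0.64 and 0.74) and MT-RNR2 at 7685 (0.47 and 0.64). Their cell levels are given above. Complex I mRNAs were at 7012 (MT-ND1), 5547 (MT-ND2), 27980 (MT-ND3), 712 (MT-ND4L), 23814 (MT-ND4), 2524 (MT-ND5) and 13747 (MT-ND6) CPM in lysate, and MT-CYB was at 23635. MT-CO1, MT-CO2 and MT-CO3 were at 4802, 6398 and 27231, and MT-ATP6 and MT-ATP8 at 28708 and 211. MT-ND2, at log2 0.75 and 0.79, moved most of the mRNAs, and the median of the 34 members was 0.185 against -0.354 over all genes.

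In 15-pg RNA 1 of 34 members was higher, against 5.79% of 10965 genes, and 3 were lower, against 7.96%. MT-TS1, the serine tRNA gene next to MT-CO1, was higher, at 5535, 6212 and 7299 CPM over the RNA wells, against 2518, 2819.8 and 3093 in cells of replicate 1 and 2448, 2658 and 3174 in cells of replicate 2 (log2 1.158 and 1.198), with no overlap. Its neighbour MT-CO1 was at 6319.6, 7314 and 8022, which was 1.94 and 1.996 times its level in the cell libraries and just short of the threshold, and its wells did not overlap with the cells either. The tRNAs MT-TA, MT-TN and MT-TY, for alanine, asparagine and tyrosine, were lower, at 26.2, 38.8 and 77.6 CPM against 81.4 and 67.6, 124 and 88.1, and 189 and 183. All 3 lie in 1 group of light-strand tRNAs between MT-ND2 and MT-CO1, and MT-TC, the other member of that group, had log2 values of -0.92 and -1.06. Among mRNAs and rRNAs, MT-CO3 was at 30426 (log2 0.66 and 0.64), MT-ATP8 at 182 (-0.69 and -0.63) and MT-RNR2 at 3934 (-0.50 and -0.32). The remaining 11 were at 812 (MT-RNR1), 5663 (MT-ND1), 3833 (MT-ND2), 5775 (MT-CO2), 27465 (MT-ATP6), 24848 (MT-ND3), 729.6 (MT-ND4L), 24966 (MT-ND4), 2778 (MT-ND5), 14093 (MT-ND6) and 22160 (MT-CYB), all within log2 0.54 of both cell libraries. The median of the members was -0.0868, against -0.0508 over all genes.

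CEL-seq2 lysate had 5 of 35 members higher, against 3.25% of 12665 genes, and 0 lower, against 18.4%. The 5 were MT-ND1 and the tRNAs MT-TA, MT-TC, MT-TI and MT-TN. MT-ND1 was at 8717, 10825 and 11550 CPM in lysate wells, against 2475, 4361 and 4927 in cells of replicate 1 and 1589, 4266 and 6519 in cells of replicate 2 (log2 1.32 and 1.27), and the wells did not overlap. MT-CO1 and MT-CO2 were at 7175 and 5445, with log2 values of 1.93 and 1.87 against replicate 1 but 0.47 and 0.47 against replicate 2. Of the rest, MT-ND4 was at 19988 (log2 1.08 and 0.95) and MT-ND6 at 8894 (1.42 and 0.76), each past 2-fold against 1 library only. MT-RNR1, MT-RNR2, MT-CO3, MT-CYB, MT-ATP6, MT-ATP8, MT-ND2, MT-ND3, MT-ND4L and MT-ND5 were at 5029.5, 21904, 9478, 10207, 15559, 1401, 7457, 5785, 1070.2 and 4565. All 15 mRNAs and rRNAs were higher in lysate than in both cell libraries, and the median of the 35 members was 0.798 against -0.497 over all genes.

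In SMART-seq lysate 1 of 31 members was higher than in cells, MT-TT, the threonine tRNA, against 27.8% of 15757 genes, and 0 were lower, against 3.64%. MT-CO1 and MT-CO2 had log2 values of -0.44 and -0.88 in lysate replicate 1 and -0.23 and -0.48 in replicate 2. The members' median was -0.223 against 0.338 over all genes. The 6 cells matched 6 of the 16 wells of lysate replicate 2, so that these tables do not separate cells from lysate fully.

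The SCC4 knockout was compared with WT within each batch, where a member was counted as past the threshold at 2-fold or more in both batches. No test across genes was made, since each genotype was 1 sample and 1 clone. Of 35 members 2 were higher in SCC4 KO, against 4.02% of 10817 genes, and 0 were lower, against 3.94%. These were the tRNAs MT-TF, directly after the control region of the mitochondrial genome, and MT-TT, near the other end of that region. MT-TF was at 217, 412 and 673 CPM in WT and 774, 1049 and 1496 in SCC4 KO in batch 1, and at 272, 428 and 545 in WT and 816, 1052 and 1416 in SCC4 KO in batch 2 (log2 1.34 and 1.33). MT-TT was at 117, 265 and 455 in WT and 522, 708 and 1103 in SCC4 KO in batch 1, and at 159, 271 and 412 in WT and 538, 717 and 1036 in SCC4 KO in batch 2 (log2 1.41 and 1.40). In both batches and for both genes all SCC4 KO cells exceeded all WT cells. MT-CYB, which lies directly before MT-TT, was the third member without overlap, 3 of 35 against 0.111% of genes higher, and 0 were lower, against 0.0462%. As between the assays, genes with many counts have less counting error and separate more easily than most genes in that share.

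MT-CYB was at 13048, 14318 and 15769 in WT and 17465, 18681 and 21004 in SCC4 KO in batch 1, and at 13359, 14667 and 16457 in WT and 17548, 18984 and 20738 in SCC4 KO in batch 2. With the groups apart in both batches, the log2 fold changes were only 0.40 and 0.38. MT-CO2 was at 5601, 6241 and 8347 in WT and 7351, 8870.5 and 11768 in SCC4 KO in batch 1, and at 5216, 6390.5 and 7438 in WT and 7692, 8844 and 14430 in SCC4 KO in batch 2 (log2 0.51 and 0.50). MT-CO3 went the other way, from 43024, 48234 and 55094 to 36538, 39379 and 43397 in batch 1 and from 37177, 49629 and 56930 to 35712, 39960 and 44573 in batch 2 (log2 -0.27 and -0.27). For MT-CO2 the genotypes overlapped in batch 1 and not in batch 2, and for MT-CO3 they overlapped in both. Both complex IV mRNAs stayed under the 2-fold threshold, and MT-CO1, at 5645 and 5808 in WT and 5732 and 5785 in SCC4 KO, had log2 values of 0.02 and -0.01. With nuclear copies added, MT-CO1 had -0.13 and -0.16 and MT-CO2 0.36 and 0.34.

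The rRNAs were somewhat higher in SCC4 KO. MT-RNR1 was at 2254, 2772 and 3370.5 in WT and 3173, 3777 and 4824 in SCC4 KO in batch 1 (log2 0.46), with 0.44 in batch 2 and a few overlapping cells, and MT-RNR2 was at 10994 and 13323 in batch 1 and 11228 and 13436 in batch 2 (0.28 and 0.26). The rRNA part of mitochondrial UMIs was 6.64% and 6.70% in WT and 8.17% and 8.16% in SCC4 KO, and the tRNA part was 3.46% and 3.48% against 4.07% and 4.05%. Complex I mRNAs differed little: MT-ND1 was at 17230 and 17379 in WT and 17550 and 18258 in SCC4 KO, and with nuclear copies added its log2 value turned from 0.03 and 0.07 to -0.14 and -0.12. MT-ND4 was at 19522, 19691, 20039 and 20237 in the same order. MT-ND2 was at 5406, 5538, 6406 and 6440.4, MT-ND5 at 8600, 8748, 9063 and 9119.9, and MT-ND6 at 9212, 9376, 9692 and 9745. MT-ND3 and MT-ND4L leaned downward, with log2 values of -0.14 and -0.15 and of -0.22 and -0.23, at 25399, 25693, 23072 and 23181 and at 1727, 1751, 1481 and 1490.4. MT-ATP6 was at 24467, 24744, 22907 and 23112 and MT-ATP8 at 1138, 1166, 936 and 956 (log2 -0.28 and -0.29 for MT-ATP8). Of the other tRNAs, MT-TQ had log2 values of 0.93 and 1.06, MT-TY 0.80 and 0.82 and MT-TS1 -0.43 and -0.46. The median of the 35 members was 0.268 against 0.0333 over all genes. Between the 2 batches of a genotype the 15 mRNAs and rRNAs moved by at most 0.0413 (WT) and 0.0570 (SCC4 KO) on the log2 scale, so the second batch adds little as a repeat of the first.

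**Figure D5:**
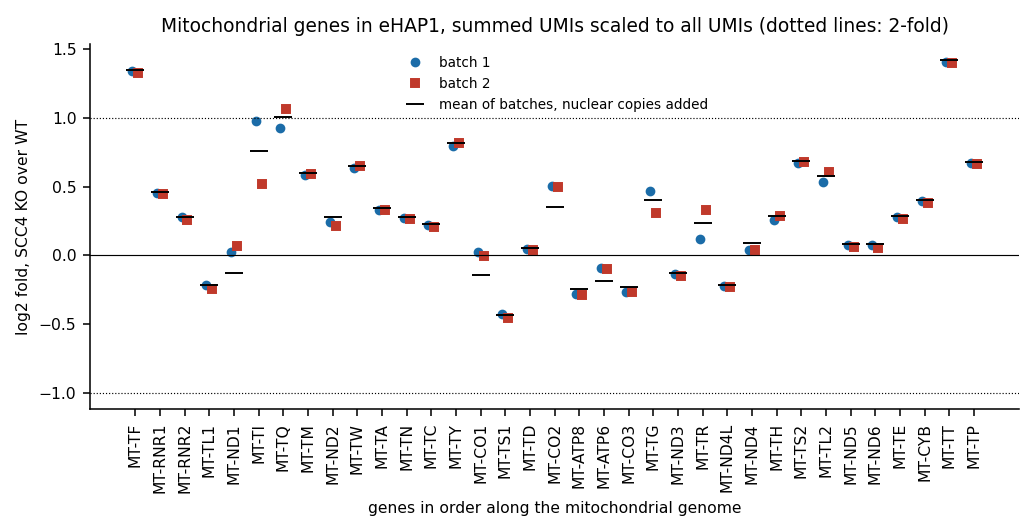
Log2 fold change of SCC4 KO over WT eHAP1 cells (y axis) for each mitochondrial gene (x axis). Circles are batch 1, squares are batch 2 and dashes are the mean with nuclear copies added. There is 1 clone per genotype and no error bar. MT-TF and MT-TT pass 1 on the log2 scale in both batches and MT-CO3 lies at -0.27.

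Among eHAP1 cells the mRNAs and rRNAs varied by a few percent. The median coefficient of variation (CV) over the 15 genes was 5.91% and 6.24% in the WT batches and 7.24% and 7.65% in the SCC4 KO batches. MT-ATP6 had the lowest CV in WT, 3.77% and 3.11%, where counting alone gives 2.15% and 1.75%, and MT-CYB had the lowest in SCC4 KO, 3.95% and 3.55%. Of the 15 genes, 9 had nuclear genes within 1.5-fold of their mean to stand beside, some of them only 1 to 3. A CV below the median of those nuclear genes was seen for 0 and 1 of the 9 in WT and for 1 and 0 in SCC4 KO. MT-RNR1, at 8.50% in WT batch 1, equalled the 8.50% of 15 such genes at this rounding, whereas MT-ND4L, at 12.5%, stood above the 9.80% of 42. With each cell scaled to its mitochondrial total, 3 and 5 of the 9 were below in WT and 3 and 5 in SCC4 KO.

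A few SCC4 KO cells stood apart in single genes. In WT no gene of the 15 reached 1.5 times its median in any cell, the highest being MT-ND4L at 1.47 and 1.42 times. In SCC4 KO batch 1 MT-ND1 and MT-ND4 passed that mark in their highest cell, and in batch 2 MT-ND1, MT-CO1, MT-CO2, MT-ATP8 and MT-ND4 did. MT-ND1 reached 74180 CPM in 1 batch 2 cell, 13035 of 175712 UMIs and 4.41 times the median of 16820, and this cell had the highest mitochondrial share, 26.5%. Its CV was 38.2%, and 12.8% without that cell. In batch 1 the highest cell was at 34450, 2.06 times the median, and the CV was 17.0%, and 13% without it. The WT values of MT-ND1 were 6.02% and 6.50%.

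Nuclear genes that transcribe, process or degrade mitochondrial RNA were described from a list of 34. In LAST-seq against CEL-seq2 32 were tested by edgeR's quasi-likelihood test, with 4 higher and 1 lower after Benjamini-Hochberg adjustment. Without LAST-seq replicate 1 these counts were 0 and 0, without replicate 2 they were 1 and 1, and scaled to nuclear UMIs they were 3 and 3. SLIRP, which stabilises mitochondrial mRNAs with LRPPRC, had a log2 fold change of 1.91 ± 0.41 (adjusted p = 0.0092) and was at 803 and 980 CPM with LAST-seq against 190 and 385 with CEL-seq2. FASTKD2, an RNA-binding protein of mitochondrial granules, SSBP1, the single-stranded DNA-binding protein, and MRPL12, a ribosomal protein, had 1.68, 1.29 and 0.88. PNPT1, which encodes the polynucleotide phosphorylase of RNA decay, had -1.06. These counts lay near the background of 11.3% and 14.8% or below it. In SCC4 KO against WT 30 were tested for fold, and TFB1M (log2 3.30 and 1.23) and SUPV3L1 (1.47 and 1.52), a methyltransferase and an RNA helicase, were higher, against 4.02% of all genes, and POLG2 (-2.43 and -1.50), a DNA polymerase subunit, was lower, against 3.94%. Against single cells, LAST-seq lysate had 1 of 33 higher (MTERF3) and 7 lower (TWNK, TFAM, FASTKD3, TFB2M, PDE12, TOP1MT and FASTKD5), against 4.6% and 17.1% of all genes. Among them TWNK is the mitochondrial DNA helicase and TFAM packages mitochondrial DNA. 15-pg RNA had 1 higher (TBRG4) and 2 lower (FASTKD2 and POLG2) of 33, against 5.79% and 7.96%, and CEL-seq2 lysate had 0 higher and 4 lower (TWNK, GRSF1, PNPT1 and POLG2) of 33, against 3.25% and 18.4%. SMART-seq lysate had 7 higher (PRORP, MTPAP, MTERF1, GRSF1, POLG, FASTK and POLG2) and 0 lower of 34, against 27.8% and 3.64%. These are calls by fold with no test.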

How the data were processed

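Deposited tables held counts per gene and well, as UMIs for LAST-seq and CEL-seq2 and as reads for SMART-seq V4. According to the methods and labels, the authors demultiplexed with bcl2fastq 2.20, trimmed with cutadapt, aligned to GRCh38 with GENCODE release 33 and spike-in sequences, and counted exon reads with zUMIs from reads subsampled to a common depth, collapsing identical UMIs. UMIs were kept only if at most 1 of their bases had a quality score under 20. A batch adjustment of counts (ComBat-seq) is named for the eHAP1 cells, and whether it was applied to these tables was not given in the sources used here.

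The members, the 34 pathway genes and the comparisons were chosen with earlier results of these data known. Gene positions came from GENCODE release 44 (99.5% of gene identifiers matched). All 37 members were accounted for, with values for the 13 mRNAs and 2 rRNAs and for the tRNAs a result turned on, and the rest as counts and ranges. Spike-ins were left out of totals. Wells of a library were summed, since wells of 1 library are not replicates, and replicate numbers follow accession order. LAST-seq and CEL-seq2 single cells were compared with edgeR 4.0.16 (quasi-likelihood test, TMM, filterByExpr, Benjamini-Hochberg over all genes, threshold 0.05) in R 4.3.3, with limma 3.58.1 loaded by edgeR and DESeq2 1.42.0 as an alternative. The script was tested on simulated data. Comparisons with 1 library or 1 clone per group used folds of summed counts with 0.5 UMI added, at a mean of at least 1 count per well. Count ratios carry exact 95% intervals that cover counting error only. Tables were made with Python 3.11.15, pandas 2.3.3, numpy 2.4.6, scipy 1.17.1 and Biopython 1.88. Alternatives were nuclear copies added to their gene, UMI-collision correction (65536 sequences for LAST-seq and an assumed 4096 for CEL-seq2), scaling to nuclear UMIs, other thresholds and each library left out. The addition of nuclear copies to the fold comparisons, the removal of matching SMART-seq wells and the removal of the deepest WT cell were chosen after seeing the data. Nuclear copies of MT-RNR1 and MT-RNR2 were not analysed here.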

Additional observations from a re-analysis of the deposited data

Results flagged for a closer look

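A well of the 15-pg RNA library had a mitochondrial share of 19.85%, the highest of its 10 wells and far from the nearest of the others for their range (gap over range 0.638, against a critical value of 0.466). It was the 1 flag among the 12 libraries and tables of 4 to 10 wells tested, and chance flags about 1 in 20. The well carried the barcode CAGTCT, whose share was also high in the other LAST-seq HEK293T libraries, as given under other observations.

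The mitochondrial share of lysate against single cells differed in sign between assays: it was -0.9017 percentage points in SMART-seq, 3.577 in LAST-seq and 6.235 in CEL-seq2. The difference between assays was not tested, and the 6 SMART-seq cells matched 6 of the lysate wells within sampling noise.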

How the results depend on the processing

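With nuclear copies added to their gene, the difference in mitochondrial share was 10.43 percentage points between LAST-seq and CEL-seq2 cells, 6.324 between LAST-seq lysate and cells and 8.404 between CEL-seq2 lysate and cells. The small difference between SCC4 KO and WT reversed with the 13 mRNAs only (-0.3465), with collision-corrected UMIs (-0.04115) and with nuclear copies (-0.9648), and ran from -0.223 to 0.2922 with a batch left out. With a library left out, members called higher in LAST-seq than CEL-seq2 ran from 4 to 22, members called lower from 0 to 5 and genes called from 961 to 2746, against 2949. At a 1.5-fold threshold LAST-seq lysate had 5 members higher and 3 lower, 15-pg RNA 3 and 9, CEL-seq2 lysate 16 higher and SMART-seq lysate 2 lower. With nuclear copies added, LAST-seq lysate had 0 higher and 1 lower. With a cell library left out, LAST-seq lysate had 1 lower each time, 15-pg RNA 1 to 2 higher and 5 to 6 lower, CEL-seq2 lysate 5 to 15 higher and 0 to 1 lower, and SMART-seq lysate 1 to 2 lower with a lysate library left out and 2 without the matching wells. The causes were not tested. Of the remaining values of the comparisons under these alternatives, 117 stayed close to the main value. For shares this means the same sign and within 1 SD, and for counts of calls and CVs within 1.5-fold. Of the values of single genes, ratios and other measures, 1475 kept their call or rank or, for ratios, stayed close to the main value. Of the others, 244 moved, 24 newly passed the threshold and 29 no longer did.

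Replicate numbers follow accession order and do not pair the libraries (correlation of replicate differences -0.011 over 4794 genes). The fit with the replicate number as a block called 12 members higher and 3 lower, and 1481 and 1803 genes. It called MT-TC, MT-TN and MT-TY in addition, and not MT-RNR2 (adjusted p = 0.168), MT-ATP6 (0.0966) or MT-ND4 (0.0794). edgeR and DESeq2 were not run on the eHAP1 batches, which lie closer than counting error in well-counted genes. Low counts limit the tRNAs. In the fold comparisons those under 1 count per well in every library compared were left out. The edgeR test used filterByExpr instead, and tRNAs under that mean in a library, such as MT-TF in CEL-seq2 replicate 1, were tested.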

Other observations

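The well with barcode CAGTCT had the highest or second-highest mitochondrial share in all 4 LAST-seq HEK293T libraries, at 19.1% and 15.9% in the cell libraries, 19.8% in 15-pg RNA and 19.997% in lysate, among 10 barcodes that each library shares. Across wells of a library the share fell as the total UMIs rose in LAST-seq cells (Spearman -0.43 and -0.842, 10 wells each; by reads it was 0.358 and 0.624 in the same cells) and in eHAP1 cells (-0.275 and -0.366 in WT, -0.206 and -0.205 in SCC4 KO), a description in which the total holds the mitochondrial UMIs as well. In CEL-seq2 cells it was -0.0667 and 0.345.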
